A study of Mus musculus with 6 samples.

Results

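The 10 interferon-inducible GTPase genes described here were measured in heart muscle cells of mice given doxorubicin or vehicle. They are 5 guanylate-binding proteins (GBPs: Gbp2, Gbp3, Gbp5, Gbp6 and Gbp7) and 5 immunity-related GTPases (IRGs: Igtp, Irgm1, Irgm2, Iigp1 and Ifi47). The genes were chosen by name with earlier results of these data known, so counts over the list are a description. All 10 were found among the 24972 gene rows of the deposited table of normalized read counts. Every mouse carried MX1gfp, a reporter genotype for the interferon-stimulated gene Mx1, including the controls. Of the mice, 3 received phosphate-buffered saline and 3 received 1 intraperitoneal dose of 25 mg per kg of doxorubicin, an anthracycline that poisons topoisomerase II. Hearts were collected 48 hours later, and ventricular myocytes were enriched by settling, without a sort. There was 1 library per replicate, and the labels give neither age nor sex.

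GBPs and IRGs are large GTPases that cells make in quantity when interferon, above all interferon-gamma, signals. They gather on the membranes that surround intracellular bacteria and parasites and help to break them open, and GBPs also promote inflammasome activation by caspase-11, the product of Casp4. Within the IRGs, Igtp (also called Irgm3), Irgm1 and Irgm2 are regulators that protect the cell's own membranes, whereas Iigp1 (Irga6) and Ifi47 (Irgd) belong to the class of effectors that load on vacuoles. In the heart, endothelial cells and macrophages respond to interferon besides the myocytes.

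The genes lie in clusters. On the GRCm38 assembly (mm10), Gbp5 (chr3:142496934-142522344), Gbp7 (chr3:142530336-142550151), Gbp3 (chr3:142560016-142573213) and Gbp2 (chr3:142620663-142638008) are neighbours, and Gbp6 (chr5:105270702-105295871) sits in a second GBP cluster. Irgm1 (chr11:48865245-48871420) and Ifi47 (chr11:49076587-49096987) flank 1 group of IRG genes, and Igtp (chr11:58199556-58207592) and Irgm2 (chr11:58214977-58222783) form a pair on the same chromosome. Iigp1 (chr18:60373616-60392634) stands apart from them.

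RefSeq promoter sequence (GRCm38.p6, 250 bases before and 50 after a transcript start) was at hand for 8 of the 10 members, in 9 promoters because Gbp3 has 2 starts. Gbp6 and Iigp1 had no entry. Each was searched on both strands for the gamma-activated site, TTCNNNGAA, and for the interferon-stimulated response element, the IRF motif read as GAAA, any 2 bases and GAAA. The response element occurred in 7 of the 9 member promoters (7 of 8 genes), against 3.44% of all 32851 promoters. The gamma-activated site occurred in 4 of the 9, in Gbp5, Gbp7, Igtp and Irgm2, against 8.3% of all. The stretches of 110 bases directly before the start are printed here because they hold nearly all of these matches, with both motifs in capitals. The GBPs of chromosome 3 carry the response element on the opposite strand, where it reads as TTTC, any 2 bases and TTTC.

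Gbp2 (chr3:142620553-142620662, plus strand): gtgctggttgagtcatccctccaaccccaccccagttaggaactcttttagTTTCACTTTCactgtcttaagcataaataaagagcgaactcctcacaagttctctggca
Gbp3 (chr3:142559934-142560043, plus strand): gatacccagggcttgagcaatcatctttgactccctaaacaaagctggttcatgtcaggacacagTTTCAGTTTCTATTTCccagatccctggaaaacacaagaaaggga
Gbp5 (chr3:142496824-142496933, plus strand): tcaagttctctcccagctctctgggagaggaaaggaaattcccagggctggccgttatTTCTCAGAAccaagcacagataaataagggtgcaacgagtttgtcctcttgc
Gbp7 (chr3:142530226-142530335, plus strand): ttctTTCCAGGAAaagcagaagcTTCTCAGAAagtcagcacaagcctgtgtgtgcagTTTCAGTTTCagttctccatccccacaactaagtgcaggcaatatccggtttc

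In Gbp3 (its upstream start) a pair of response elements overlap, from bases -45 and -39. Gbp7 has gamma-activated sites from bases -106 and -87 and a response element from -53. In Gbp5 only the site from base -52 falls in the printed stretch, and its response element starts at -165.

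The 4 IRG genes with a promoter entry follow. They are shown because Igtp and Irgm2 share an arrangement in which the gamma-activated site is followed, after a gap of 2 bases, by the response element.

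Igtp (chr11:58199446-58199555, plus strand): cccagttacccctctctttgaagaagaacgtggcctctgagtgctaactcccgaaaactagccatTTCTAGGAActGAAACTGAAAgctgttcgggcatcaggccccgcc
Irgm2 (chr11:58214867-58214976, plus strand): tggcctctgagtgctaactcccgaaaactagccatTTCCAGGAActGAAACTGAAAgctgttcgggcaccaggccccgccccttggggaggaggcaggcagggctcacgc
Irgm1 (chr11:48871421-48871530, minus strand): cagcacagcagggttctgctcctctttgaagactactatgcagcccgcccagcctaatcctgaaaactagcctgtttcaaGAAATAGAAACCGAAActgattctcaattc
Ifi47 (chr11:49076477-49076586, plus strand): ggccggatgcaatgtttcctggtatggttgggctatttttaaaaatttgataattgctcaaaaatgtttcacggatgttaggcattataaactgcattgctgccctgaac

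Igtp and Irgm2 were identical at 78 of 80 aligned bases (97.5%) of these stretches, with the joint motif from base -45 in Igtp and from -75 in Irgm2. A stretch just after the start was found in a GENCODE transcript of the gene for Igtp, but not for Irgm2 or Gbp7. Positions in Irgm2 and Gbp7 therefore rest on the RefSeq start alone. The joint arrangement, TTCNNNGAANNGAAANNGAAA, was found in 5 of the 32851 promoters (0.0152%), and all 5 belong to IRG genes of chromosome 11: Igtp, Irgm2, Tgtp1, Tgtp2 and Gm12185. The joint arrangement was noticed in these sequences and then counted, so the count is a description. Irgm1 has overlapping response elements from -30 and -24 and no gamma-activated site. Ifi47 holds neither motif in this window and has a TATA box (TATAAA) from base -25. TATAAA was found on either strand in 2 of the 9 member promoters, against 13.6% of all. A match is a string of letters, and no binding was measured here.

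**Figure D1:**
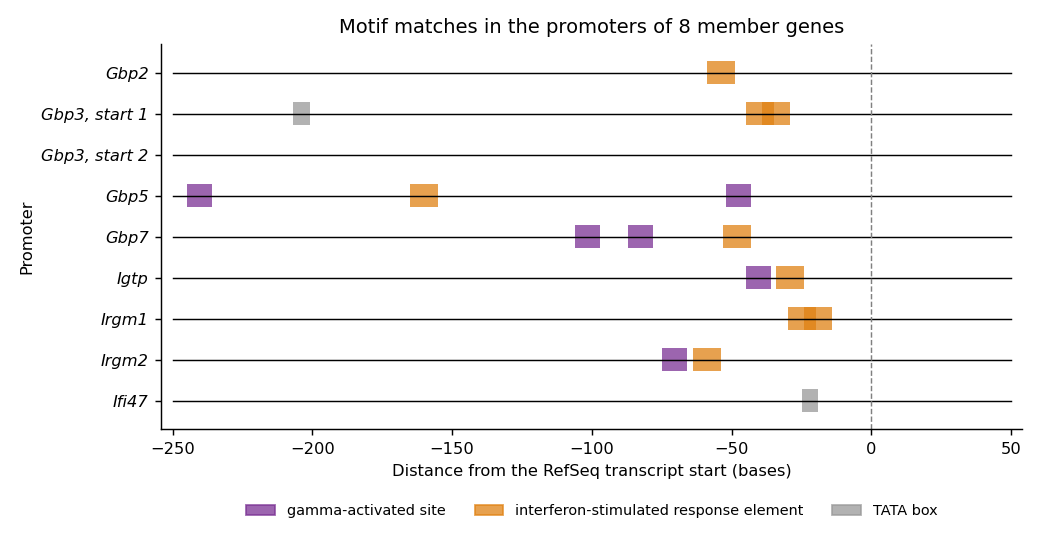
Motif matches along the promoters of 8 member genes, by distance in bases from the RefSeq transcript start (dashed line at 0). Purple boxes are gamma-activated sites, orange boxes interferon-stimulated response elements and grey boxes TATA boxes. Orange boxes lie within 60 bases of the start in Gbp2, Gbp7, the upstream start of Gbp3, Igtp and Irgm1, those of Irgm2 and Gbp5 begin at -64 and -165, and Ifi47 has neither purple nor orange.

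The values summed to between 5410780 and 7500386 normalized counts per library. The spacing of the low values points to about 7710000 to 11400000 reads in a vehicle library and 3670000 to 6170000 in a doxorubicin library, so depth and treatment cannot be told apart. The members rested on an estimated 43.1 reads (Ifi47) to 1046 reads (Iigp1) in a library. Leaving out doxorubicin replicate 1 moved the number of genes passing the test from 0 to 2409 higher and 2718 lower. The 10 myocyte marker genes (Myh6, Tnnt2 and others) were abundant in every library, with sums of 721674 to 868099 in vehicle libraries. In doxorubicin replicates 1, 2 and 3 the sums were 641676, 218455 and 180772, so replicate 1 stood nearest to vehicle by these markers. By the median of all 10 members it did not, with 0.56 (log2, relative to the vehicle mean) against 0.42 in replicate 2. The families differed in this, with 0.67 against 0.05 for the GBPs and 0.52 against 0.59 for the IRGs. In bulk RNA, fewer cells of a type and less RNA per cell cannot be told apart.

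All 10 GTPase genes had a higher mean after doxorubicin, by 0.41 to 1.27 on the log2(normalized count + 1) scale, with a median of 0.63 against -0.0046 for all 12477 genes tested. None passed limma at a Benjamini-Hochberg adjusted p under 0.05: 0 of 10 members, and 0% of all genes were called higher. At an unadjusted p under 0.05 there were 8 of 10 members higher, against 16.7% of all genes. In 7 of the 10, every doxorubicin value exceeded every vehicle value, which held for 19.2% of all genes. All 5 IRG members were among the 7, and of the GBPs only Gbp2 and Gbp6. All 10 members entered the test, and each would have done so on its vehicle values alone.

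Among the GBPs, Gbp2, which coats pathogen vacuoles, held 282, 338 and 276 normalized counts with vehicle and 485, 422 and 751 with doxorubicin, always given in the order of replicates 1 to 3. The groups did not overlap, and doxorubicin replicate 3 was the highest library. Its mean was 299 ± 34.0 (SD, n = 3) with vehicle and 553 ± 174 with doxorubicin, a log2 difference of 0.85 (95% interval 0.31 to 1.38, limma adjusted p 0.0859). Gbp5, which promotes inflammasome assembly, held 116, 142 and 126 with vehicle and 219, 132 and 325 with doxorubicin. Doxorubicin replicate 2 lay inside the vehicle range, while the other 2 lay above it. The means of Gbp5 were 128 ± 13.3 and 225 ± 96.4, a difference of 0.72 (0.00 to 1.44, adjusted p 0.138), which was 1.06 without doxorubicin replicate 2 and 0.41 without replicate 3.

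The other neighbours on chromosome 3 dipped in the same library. Gbp3 held 170.2, 154 and 157 with vehicle and 256, 115 and 338 with doxorubicin, so replicate 2 was the lowest of all 6 and replicates 1 and 3 the highest. Its difference of 0.42 (-0.42 to 1.27, adjusted p 0.416) was within the spread between replicates, becoming 0.87 when doxorubicin replicate 2 was left out and 0.10 when replicate 3 was. Gbp7, which is linked to the assembly of the phagocyte oxidase, held 304, 404 and 381, then 531, 309 and 672. Again replicate 2 lay inside the vehicle range and the other 2 above it. The difference of Gbp7 was 0.41 (-0.25 to 1.08, adjusted p 0.321), from 363 ± 52.1 to 504 ± 183, and 0.73 without replicate 2 and 0.17 without replicate 3.

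Gbp6, in the cluster on chromosome 5, had the opposite order. It held 345, 537 and 496 with vehicle and 648, 885 and 576 with doxorubicin, so replicate 2 was its highest library and the groups did not overlap. The means were 459.5 ± 101 and 703 ± 161, a difference of 0.61 (0.08 to 1.15, adjusted p 0.108). Gbp10 is a close copy of Gbp6, with which reads may be shared. The sum of both was 349 to 555 with vehicle and 673, 957 and 595 with doxorubicin, again without overlap.

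**Figure D2:**
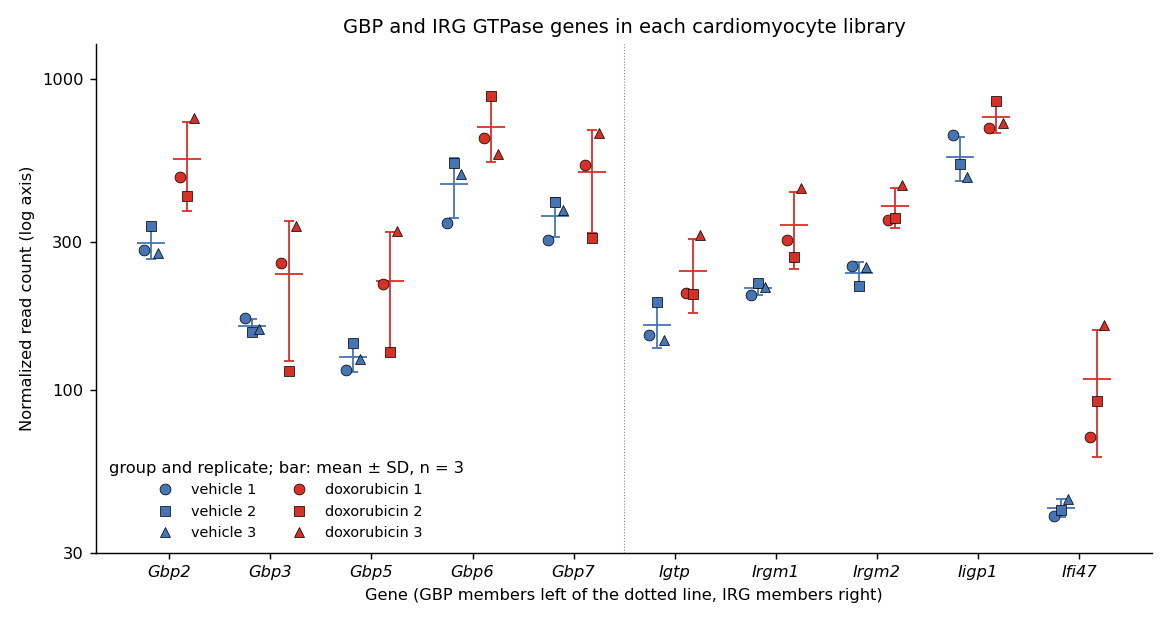
Normalized read counts (log axis) of the 10 members in each library, with the mean and SD of 3 libraries per group. Blue symbols are vehicle and red symbols doxorubicin; circles, squares and triangles are replicates 1, 2 and 3. The red squares (doxorubicin replicate 2) sit among or below the blue symbols in Gbp3, Gbp5 and Gbp7, top the group in Gbp6 and Iigp1, and sit above every blue symbol in all 5 IRG members.

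Of the IRG regulators, Irgm1 held 202, 222 and 214 with vehicle and 304, 268 and 448 with doxorubicin. Every doxorubicin library was above every vehicle library, and the vehicle libraries were close together. The means were 213 ± 9.65 and 340.1 ± 95.1, a difference of 0.64 (0.16 to 1.12, adjusted p 0.0878), and 0.42 without doxorubicin replicate 3. Irgm2 was the steadiest, with 252, 216 and 249 against 354, 359 and 458, and again no overlap. Its difference was 0.70 (0.33 to 1.07, adjusted p 0.0859), from 239 ± 20.0 to 390.1 ± 58.4, and it ranged only from 0.58 to 0.76 when any 1 library was left out. Igtp, the neighbour of Irgm2, held 151, 192 and 145, then 205, 204 and 316. Its groups were separated narrowly, with doxorubicin replicates 1 and 2 just above vehicle replicate 2. The difference of Igtp was 0.55 (0.04 to 1.06, adjusted p 0.121), from 163 ± 25.5 to 242 ± 64.2, and 0.34 without doxorubicin replicate 3.

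Of the IRG effectors, Ifi47 was the least abundant member and had the widest difference of the 10. It held 39.5, 41.3 and 44.8 with vehicle and 71.0, 92.7 and 163 with doxorubicin. All 3 doxorubicin libraries were clear of the vehicle libraries. The means were 41.9 ± 2.73 and 109 ± 47.9, a difference of 1.27 (0.56 to 1.98, adjusted p 0.0859), and 0.94 without doxorubicin replicate 3. Iigp1, the most abundant member by mean count, held 664, 534 and 487, then 696, 850.4 and 722. Its vehicle replicate 1 came close to doxorubicin replicate 1, though the groups did not overlap. The difference of Iigp1 was 0.44 (0.04 to 0.83, adjusted p 0.116), from 561 ± 91.8 to 756 ± 82.5.

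Relative to the vehicle mean, the median of the 5 GBPs was 0.67, 0.05 and 1.07 (log2) in doxorubicin replicates 1, 2 and 3, and that of the 5 IRGs was 0.52, 0.59 and 0.96. The families thus differed most in replicate 2, where members ranged from -0.47 (Gbp3) to 1.13 (Ifi47). Replicate 3 had the highest value in 8 of the 10 members, the exceptions being Gbp6 and Iigp1. These are values of single libraries, and the difference between the families was not tested.

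Leaving out doxorubicin replicate 1 brought 5 members past limma's adjusted threshold, against 19.3% of all genes called higher in that fit. They were Gbp2 (adjusted p 0.0182), Igtp (0.0482), Irgm1 (0.0339), Irgm2 (0.00829) and Ifi47 (0.00329). Leaving out any other single library gave 0 members. Library weights, which gave that replicate a weight of 0.277, also brought 5 members past the threshold (Gbp2, Irgm1, Irgm2, Iigp1 and Ifi47), against 15.7% of all genes. Xist and the Y-linked gene Ddx3y split the libraries across both groups. Among the 3 libraries with Ddx3y (vehicle replicates 1 and 2, doxorubicin replicate 2), 8 of 10 members were higher, with a median of 0.39, and Gbp3 and Gbp7 were lower. Among the 3 with Xist, 10 of 10 were higher, with a median of 0.79. Each class holds 1 library of a group, so these values carry no test. The share of all genes was not counted within a class, so the counts of members have nothing to be read against.

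Expressed per kilobase of the longest coding transcript in GENCODE M21, vehicle levels ran from 180 ± 29.4 normalized counts per kb for Iigp1 and 176 ± 38.8 for Gbp6 to 23.6 ± 1.54 for Ifi47. Gbp2 (119 ± 13.5), Irgm1 (94.2 ± 4.27), Igtp (80.5 ± 12.6), Irgm2 (67.7 ± 5.66), Gbp7 (64.7 ± 9.28), Gbp3 (59.8 ± 3.18) and Gbp5 (42.0 ± 4.37) lay between them. Neighbours in this order had overlapping vehicle values except at 4 steps: from Gbp2 to Irgm1, from Igtp to Irgm2, from Gbp3 to Gbp5 and from Gbp5 to Ifi47. With doxorubicin the levels per kb ran from 270.0 ± 62.0 for Gbp6 and 242 ± 26.4 for Iigp1 to 61.3 ± 27.0 for Ifi47, with the other members in the same order as with vehicle.

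**Figure D3:**
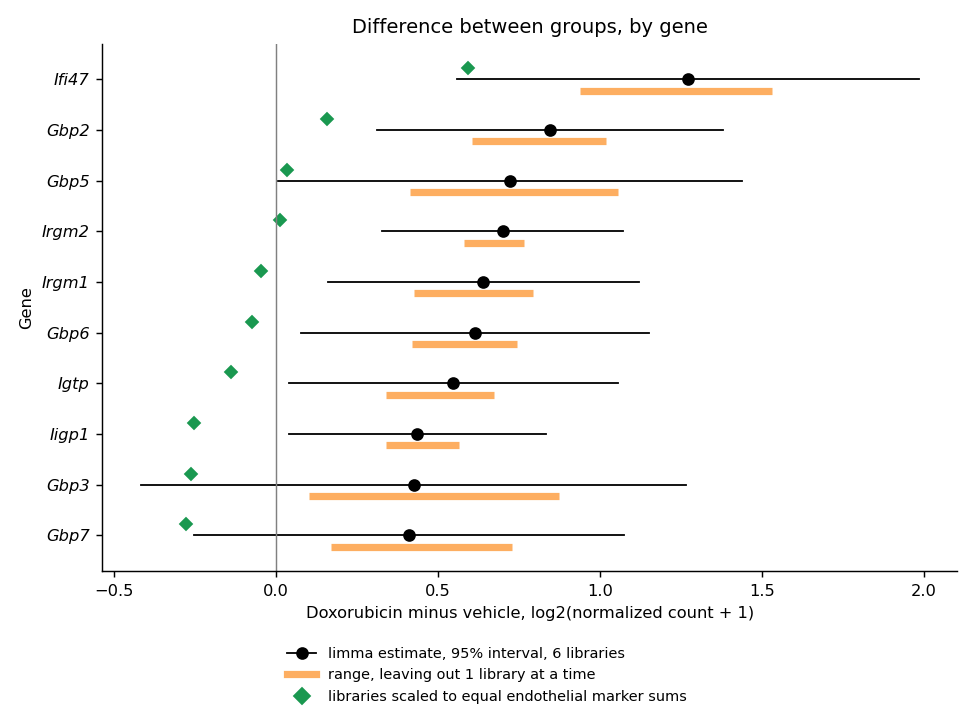
Doxorubicin minus vehicle for each member on the log2(normalized count + 1) scale. Black points and lines are the limma estimate from 6 libraries and its 95% interval, orange bars the range when 1 library is left out, and green diamonds the estimate after scaling the libraries to equal endothelial marker sums. Estimates run from 0.41 (Gbp7) to 1.27 (Ifi47), the orange bars stay above 0, and 6 of the 10 diamonds lie below 0.

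The summed endothelial, macrophage, fibroblast and neutrophil markers were also higher in every doxorubicin library than in any vehicle library. No tested marker of any list passed limma in either direction. The counts of markers without overlap are to be read against the 19.2% of all genes whose doxorubicin values were all higher. The endothelial marker Kdr (-0.26) and the fibroblast marker Col3a1 (-0.42) had negative differences with overlapping groups. The 10 endothelial markers (Pecam1, Cdh5 and others) summed to 15874 to 20428 normalized counts with vehicle and to 26128, 28780 and 35936 with doxorubicin, and in 7 of the 10 the groups did not overlap. Their median log2 difference was 0.81, beside 0.63 for the GTPase members and 0.66 for the 10 fibroblast markers. The 10 macrophage markers (Adgre1, Csf1r and others) summed to 2386 to 2503 with vehicle and to 3895, 6745 and 14815 with doxorubicin, with 9 of 10 not overlapping and a median of 1.57. No endothelial, macrophage or fibroblast marker (0 of 10 in each list) was at 0 in any library. The 10 fibroblast markers summed to 7255 to 9535 and to 10338 to 24866, with 4 of 10 not overlapping. Most of the sum in doxorubicin replicates 2 and 3 was Dcn. It held 2905, 2767 and 2446 with vehicle and 3113, 18072 and 11326 with doxorubicin. Of the 10 fibroblast markers 9 had a positive difference, the smallest being Postn (0.037) and Col1a1 (0.18). Neutrophil markers summed to 10.5 to 21.7 and to 55.0 to 563, with Mpo at 0 in the 3 doxorubicin libraries and in vehicle replicates 1 and 2. The 4 neutrophil markers tested had a median difference of 4.09. The 12 lymphocyte and natural killer cell markers summed to 27.9 to 50.8 and to 14.4 to 114, overlapping. Of the 12, 6 were at 0 in some vehicle library and 8 in some doxorubicin library.

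The summed GTPase level was set against the endothelial and macrophage sums only. In doxorubicin replicates 1, 2 and 3 the median of the members was 0.56, 0.42 and 1.02 (log2, relative to the vehicle mean). That of the endothelial markers was 0.60, 0.66 and 1.17, and that of the fibroblast markers 0.39, 0.47 and 1.02. The 10 members together held 2526, 2779 and 2576 normalized counts with vehicle and 3771, 3637 and 4768 with doxorubicin, without overlap. Per 1000 counts of the endothelial markers this was 127, 136 and 162 with vehicle and 144, 126 and 133 with doxorubicin, so the groups overlapped. Per 1000 counts of the macrophage markers it was 1009, 1114 and 1079.7 with vehicle and 968, 539 and 322 with doxorubicin, lower in every doxorubicin library. With the libraries scaled to equal endothelial sums, a setting chosen after seeing the data, the median member difference was -0.062, and Gbp3, Gbp6, Gbp7, Igtp, Irgm1 and Iigp1 had a negative sign. Under that scaling the median of all genes was -0.69, and Ifi47 (0.59, adjusted p 0.113) was the highest of the 10. Which cells the GTPase transcripts came from was not tested.

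**Figure D4:**
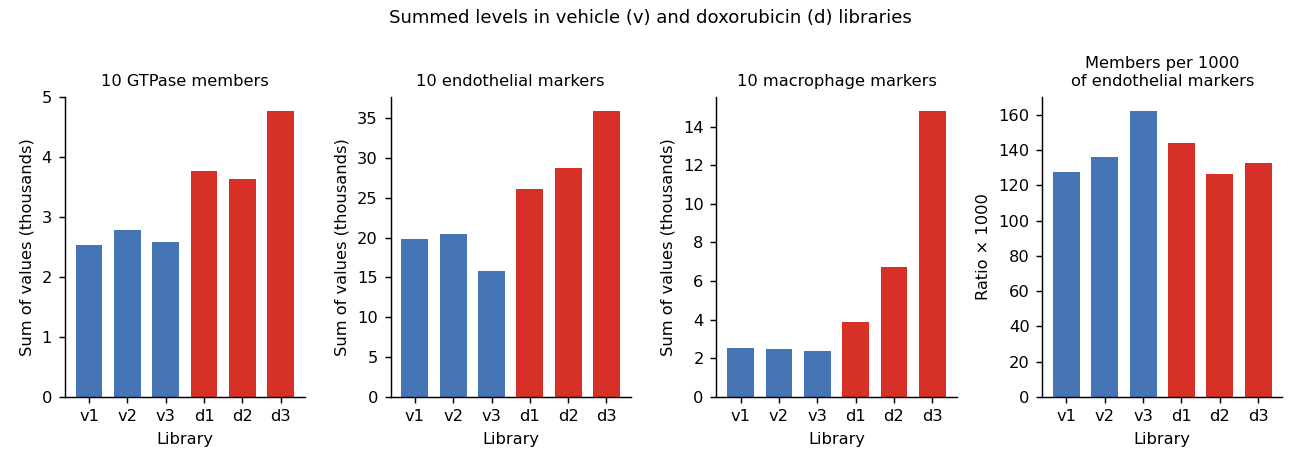
Summed normalized counts (axis in units of 1000) of the 10 members, 10 endothelial markers and 10 macrophage markers, and the members' sum per 1000 counts of endothelial markers, in vehicle (blue, v1 to v3) and doxorubicin (red, d1 to d3) libraries. The first 3 panels are higher in every red bar than in every blue bar. In the ratio the groups overlap, between 126 and 162.

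Among 20 further genes of the GBP, IRG and atlastin families, 15 were tested and 0 passed in either direction. In 3 of the 15 every doxorubicin value was above every vehicle value, against 19.2% of all genes, and in 2 below, against 22.6%. The median log2 difference was 0.68. Tgtp1, an IRG effector (Irgb6), held 117, 145 and 111 with vehicle and 190.3, 226 and 386 with doxorubicin, a difference of 1.04 (adjusted p 0.0859). Its near-identical copy Tgtp2 held 297, 209 and 216, then 389, 256 and 620.2, a difference of 0.73 (adjusted p 0.141) with overlap, and 0.41 without doxorubicin replicate 3. Reads may be shared between the copies, and their sum was 327 to 414 with vehicle and 579, 482 and 1006 with doxorubicin. Gbp4 and Gbp9, next to each other on chromosome 5, dipped in doxorubicin replicate 2 like Gbp3. Gbp4 held 273, 339 and 215, then 398, 158 and 543 (difference 0.26, adjusted p 0.686); the difference was -0.11 without doxorubicin replicate 3 and 0.77 without replicate 2. Gbp9 held 482, 550.1 and 439, then 772, 342 and 1031 (difference 0.41, adjusted p 0.452), and its difference was 0.073 and 0.87 without those same libraries. The very large interferon-inducible GTPase Gvin1 had the highest difference of the list, 3.52 (adjusted p 0.247), but it was listed at 0 in vehicle replicate 2 and was 0.73 without that library. Atl2, an atlastin that shapes the endoplasmic reticulum, had the lowest, -0.45 (adjusted p 0.105). Named after their values were seen, Gm5431 (2.37) and Atl3 (1.07) were the other genes above every vehicle value, and Irgq (-0.44, or -0.27 without doxorubicin replicate 2) lay below, as did Atl2. The difference of Gm5431 rests on low values, 5.78, 3.85 and 4.44 with vehicle and 14.6, 28.9 and 52.1 with doxorubicin.

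Of 18 genes of interferon signalling, 15 were tested, 0 passed, and the median difference was 0.43. In 7 of the 15 the doxorubicin values were all higher, against 19.2% of all genes, and in 1 all lower, against 22.6%. The ligands were at the limit of detection. Ifnb1 was listed at 0 in all 6 libraries. Ifng was listed at 0 in the vehicle libraries and doxorubicin replicate 3, and at 1.05 and 1.21 in doxorubicin replicates 1 and 2, about the worth of 1 read. The receptor chains of interferon-gamma differed in direction. Ifngr1, which binds the ligand, held 478, 490.1 and 392 with vehicle and 601, 1271 and 1232 with doxorubicin (difference 1.12, adjusted p 0.0859). Ifngr2, the signalling partner chain, held 1781, 1735 and 1907, then 1299, 366 and 539 (difference -1.51, adjusted p 0.0859). Neither receptor gene had overlapping groups.

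The transcription factors had positive differences of different size. Irf1, a direct activator of GBP and IRG genes, held 284, 236 and 197 with vehicle and 402, 427 and 563 with doxorubicin (difference 0.96, adjusted p 0.0859). Irf9, the DNA-binding part of the complex that type I interferon activates, held 166, 143 and 119, then 256, 230.2 and 341 (0.94, adjusted p 0.0859). Irf8, which is typical of myeloid cells and had the largest difference of the list, held 49.9, 39.1 and 54.1, then 63.2, 111 and 188 (1.20, adjusted p 0.0864). These 3 genes had no overlap between groups.

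Genes listed for the placing of GBPs and IRGs on membranes stood near the middle of all genes. Most of these 15 genes belong to the ATG8 conjugation system and its adaptors, though Becn1 does not. All 15 were tested, 0 passed and the median difference was 0.06. In 2 (Traf6 and Becn1) the doxorubicin values were all higher, against 19.2% of all genes, and in 2 (Atg16l1 and Ube2l3) all lower, against 22.6%; these 4 were named after their values were seen. Gabarapl1, an ATG8 protein, had the largest difference at 0.77 (adjusted p 0.176), with 2283 in doxorubicin replicate 2 against 708 to 781 with vehicle, and was 0.35 without that library and 1.18 without doxorubicin replicate 1. Map1lc3a had the lowest at -0.42 (adjusted p 0.460), which was -0.043 without doxorubicin replicate 3 and -0.86 without replicate 2. A further 6 genes serve to attach the lipid anchor of CaaX proteins or to process the anchored end. Gbp2 and Gbp5 carry this kind of anchor. Of the 6 genes, 0 passed and the median was -0.13. Fnta, the alpha subunit shared by farnesyl and geranylgeranyl transferase, was lowest, from 606 ± 28.7 to 434 ± 69.1 (-0.49, adjusted p 0.0884). Rce1, which trims the anchored end, was highest (0.33, adjusted p 0.326, and 0.16 without vehicle replicate 2).

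The inflammasome genes had a higher median than the members. Of 8 genes, 7 were tested and 0 passed, with a median difference of 1.24. Nlrp3, Il1b, Gsdmd and Casp4 had doxorubicin values all above vehicle (4 of 7, against 19.2% of all genes). Pycard, the adaptor ASC, had them all below (-0.85, adjusted p 0.156, and -0.39 without doxorubicin replicate 2). Casp4, named after its values were seen, held 18.6, 19.3 and 20.5 with vehicle and 40.7, 72.2 and 82.6 with doxorubicin (1.63, adjusted p 0.0859). Il1b, a cytokine of activated myeloid cells, had the largest difference (2.75, adjusted p 0.151), with 33.5, 30.1 and 979 in the doxorubicin libraries, and 1.11 without replicate 3. The same replicate 3 held the highest macrophage sum and the highest endothelial sum, and a link of either to Il1b was not tested.

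**Figure D5:**
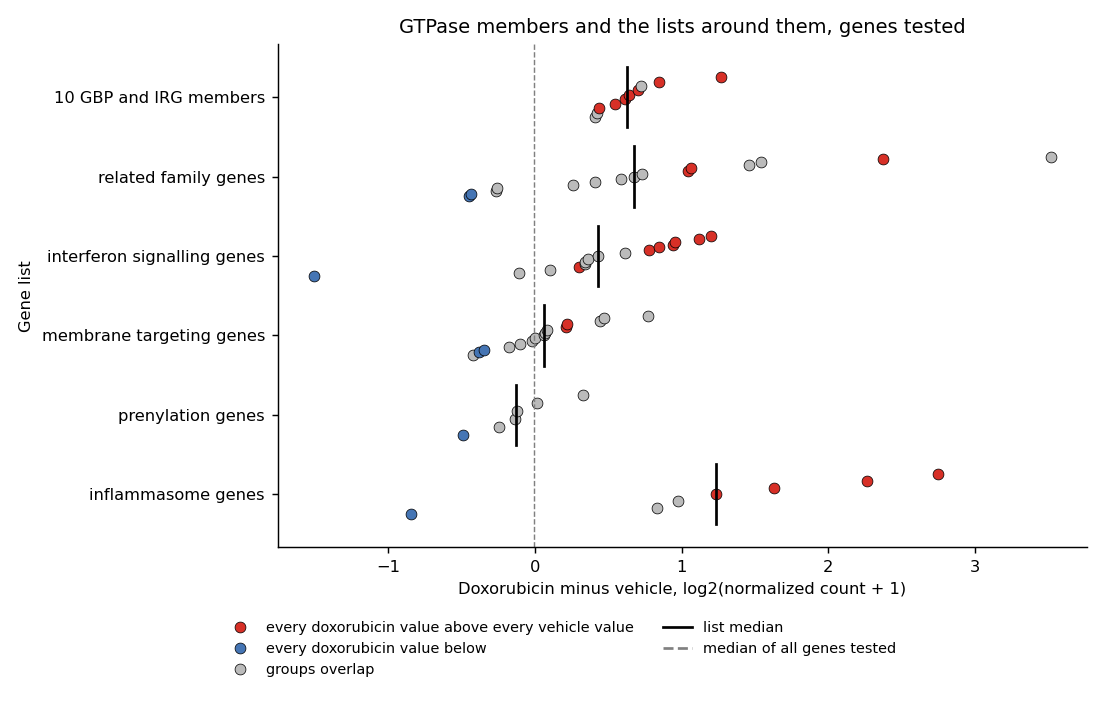
Doxorubicin minus vehicle on the log2(normalized count + 1) scale for the tested genes of the members and of 5 related lists. Red points have every doxorubicin value above every vehicle value, blue points every value below, grey points overlap; black bars are list medians and the dashed line is the median of all genes. The members' bar stands at 0.63, membrane targeting genes at 0.06 and inflammasome genes at 1.24.

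The members' median profile across the 6 libraries was compared with 10015 other genes of mean at least 50, by the root-mean-square difference of log2 values relative to each gene's vehicle mean. The 5 closest genes were Abca3, a lipid transporter (0.047), Tap2, a peptide transporter of MHC class I presentation (0.063), the tetraspanin Tspan7 (0.067), the protease Klk8 (0.075) and the lysosomal ceramidase Asah1 (0.078). The median gene differed by 0.61. The members themselves ranged from 0.051 for Irgm1 to 0.48 for Ifi47, so 1 profile describes Irgm1 better than it does Ifi47, Gbp6 (0.38) or Gbp3 (0.38). Each member helped to set that profile, so its distance cannot be compared with those of the other genes. Tap2 held 281, 321 and 281 with vehicle and 396, 397 and 580.5 with doxorubicin. Likeness over 6 libraries that share treatment and depth is a description.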

How the data were processed

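RNA of 6 cardiomyocyte libraries was measured, 3 per group, with groups and replicate numbers taken from the sample titles. Per the labels, reads were mapped to mm10 with RefSeq genes by STAR on BaseSpace. The submitters' processing notes list STAR 2.6.1a and Salmon. For the scaling, any filter and strand, the method is not given in the sources used here. Per gene, the authors deposited a signal, a normalized read count that is not a whole number, in 1 column per library. Between 80.0% and 92.5% of the low values (below 8.5 steps) were near a whole multiple of the worth of 1 read (tolerance 0.1 step), too few for a test on counts; library depths are estimates from that step.

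Here 1 was added, log2 taken, and the 12477 genes with a mean of at least 10 tested with limma 3.58.1 (R 4.3.3; trended empirical Bayes, two-sided, Benjamini-Hochberg over all genes, threshold 0.05). The log2(value + 1) scale understates changes of low genes. No exact permutation test is reported, since 3 against 3 allows no p under 0.1. Members and lists were chosen with earlier results of these data known. Named genes were the members, fixed genes of each list with its largest and smallest difference, and the 5 genes nearest in profile. The 26 rows whose names read as dates were kept in the fit where they passed the filter, and are not named. A gene named by the rule is not reported here. Protein sequences were not used here. Alternatives covered pseudocount, filter, scaling, moderation, weights, block, covariate and leaving out each library. Figures used matplotlib 3.10.9.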

Additional observations from a re-analysis of the deposited data

How the results depend on the processing

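With all 6 libraries at equal weight, 0 genes and 0 members passed at pseudocounts of 0.5 and 8, without a filter, with a minimum mean of 50, equal totals, quantile normalization, no trend, robust moderation or the Xist and Ddx3y class covariate, and the members' median ran from 0.56 to 0.93. The highest came from equal totals, which moved the median of all genes to 0.29. Library weights, which gave doxorubicin replicate 1 a weight of 0.277, called 1954 genes higher (15.7%), 2318 lower and 5 members. Leaving out each library in turn gave 0 to 2409 genes higher, 0 to 2718 lower, 0 to 5 members and a member median of 0.45 (without doxorubicin replicate 3) to 0.77; the cause was not tested. Scaling to equal endothelial sums, added after seeing the data, called 140 of 12477 genes higher and 5390 lower. Of the members, 0 were called in either direction. The member median was -0.062, above the median of all genes, which this scaling moved to -0.69. The scaling gave -0.26 for Gbp3, -0.076 for Gbp6, -0.28 for Gbp7, -0.14 for Igtp, -0.048 for Irgm1 and -0.25 for Iigp1. By construction it sets the endothelial markers level. With the replicate number as a block the member median was 0.63 and 0 genes and 0 members passed. The correlations of deviations between libraries of equal number were -0.13, 0.03 and -0.09. Between libraries of unequal number they ran from -0.18 to 0.22. With 3 libraries per group these values cannot decide whether the numbers pair the libraries. Depth limits Ifi47 most, at an estimated 43.1 reads in its lowest library.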
